A study of Mus musculus with 6 samples.

Results

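The genes described here belong to name families known for enzymes and subunits that remodel chromatin or modify histones, and not every member is known to do so. They were taken by name alone from the 21958 protein-coding genes of the deposited table, as every symbol that begins with Kmt, Kdm, Chd, Setd, Hdac or Arid followed by a digit, or with Smarc, and 76 genes met the rule. They comprise 5 Kmt, 18 Kdm, 10 Chd, 9 Setd, 11 Hdac, 10 Arid and 13 Smarc genes. RNA was sequenced from synaptoneurosomes, a filtered brain fraction enriched in pinched-off synaptic terminals, made from the hippocampus and adjacent cortex of FVB mice aged 6 to 8 weeks. One group held total RNA of unstimulated synaptoneurosomes (n = 3 libraries). The other held RNA of the pooled light and heavy polyribosomes (n = 3 libraries) of synaptoneurosomes that received NMDA (50 µM) with glutamate (10 µM) for 30 s at 37°C and then APV (120 µM), an antagonist of the NMDA receptor, for 20 min. Tissue of several mice was combined for each preparation and then divided into aliquots, so a library is a pool of animals and of all the cell types whose processes the filters retain. By the study's methods, unstimulated control samples stayed on ice with cycloheximide, which stalls ribosomes, while stimulated samples were kept warm. The methods also state that RNA granules were left out of the polyribosome pool. They give a lower average share of uniquely mapped reads for polyribosomes than for total RNA. The groups thus differ in stimulation, incubation, RNA fraction and mapping together, and the contributions of these to any difference cannot be told apart.

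Histones are the proteins around which DNA is wound, and chemical groups placed on their tails set how readily a gene is read. Most Kmt and Setd proteins add methyl groups to lysine, Kdm proteins remove them, and Hdac proteins remove acetyl groups. Chd and Smarca proteins use ATP to slide or evict nucleosomes, often within large complexes such as BAF (the mammalian SWI/SNF complex), to which Arid1a, Arid1b, Arid2 and most other Smarc proteins belong. These proteins act mainly in the nucleus, several of their genes are mutated in human neurodevelopmental disorders, and their mRNAs were measured here in a fraction from which most nuclei had been removed.

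A pair of closely related enzymes, chosen after its values were seen, is given here by sequence. Whether sequence bears on their ratios was not tested. Kdm6a and Kdm6b remove methyl groups from the same residue of histone H3, and their polyribosome to total ratios lay near opposite ends of the Kdm family. The stretches that follow are 90 coding bases the most similar ungapped and in-frame stretch that lies inside 1 exon of each gene (GRCm38, Gencode vM21 transcripts), from exon 25 of 29 of Kdm6a at chrX:18271930-18272019 on the plus strand and from exon 19 of 23 of Kdm6b at chr11:69401006-69401095 on the minus strand, with the bases that differ between them in capitals.
Kdm6a: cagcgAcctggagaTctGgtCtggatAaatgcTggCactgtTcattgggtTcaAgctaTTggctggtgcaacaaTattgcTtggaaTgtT
Kdm6b: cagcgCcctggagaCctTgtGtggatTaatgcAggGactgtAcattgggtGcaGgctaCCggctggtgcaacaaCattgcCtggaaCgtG
In this stretch 74 bases were identical and 16 differed, 15 of them at the last base of a codon, and at 10 Kdm6a had A or T where Kdm6b had G or C, against 1 of the reverse kind. The GC content of the coding sequence was 44.2% in Kdm6a and 61.7% in Kdm6b.

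The counts on protein-coding genes summed to between 5294482 and 7361580 in the polyribosome libraries and to between 1044955 and 3738022 in the total RNA libraries, of which total RNA replicate 3 was the shallowest. Libraries that share a replicate number are called a preparation here, since the methods divide each synaptoneurosome preparation into aliquots. Preparation 3 stood apart from the others. Kdm5d, the demethylase encoded on the Y chromosome (chrY:897788-956786), had 80 counts in polyribosome replicate 3 and 36 in total RNA replicate 3 and 0 in the other 4 libraries. Of the other genes of the Y chromosome with any count, Uty had 50 and 36 counts and Eif2s3y 55 and 26 in these libraries and 0 elsewhere, and Ddx3y had 224 and 51 there and 1 count in total RNA replicate 2. Uba1y had 3 counts, all in polyribosome replicate 3, and Erdr1, which lies in the region that X and Y share, had 5 to 61 counts in every library. The study's methods describe male mice. Preparations 1 and 2 therefore went against that description, and results are given with and without preparation 3.

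**Figure D1:**
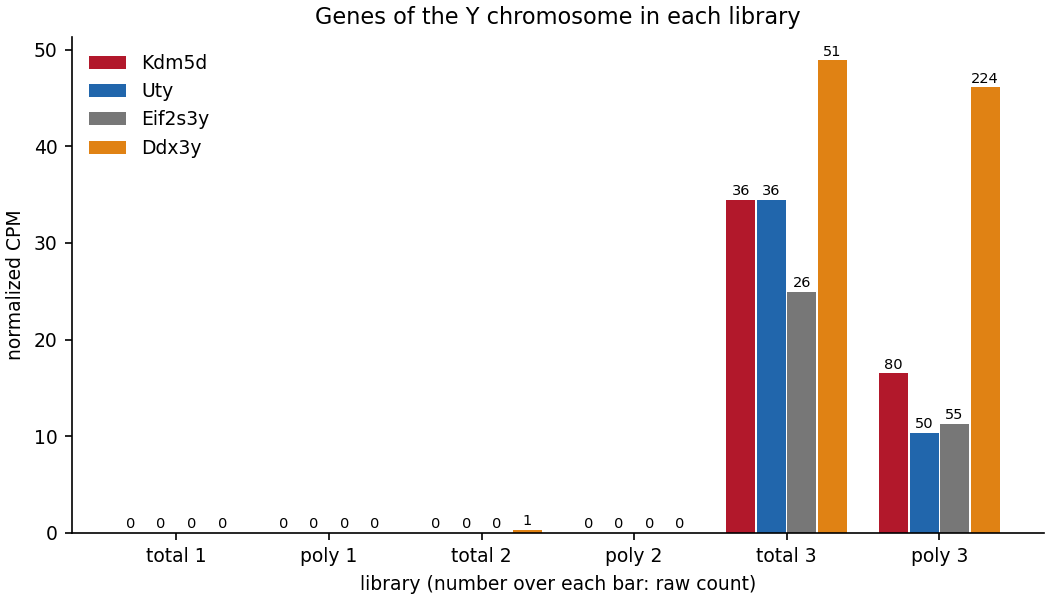
Normalized CPM of 4 Y-linked genes in each of the 6 libraries, with the raw count over each bar (total, unstimulated total RNA; poly, NMDA polyribosomes; bars are single libraries and carry no error). Only the libraries of preparation 3 hold more than 1 count of any of them.

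All 5 cell type marker lists were detected in every library with no marker at 0. The summed markers of astrocytes ranged from 37400 to 39500 CPM on polyribosomes and from 30600 to 34400 CPM in total RNA, and those of oligodendrocytes from 10500 to 14400 and from 7710 to 10800 CPM. All 8 of 8 astrocyte, 8 of 8 oligodendrocyte and 8 of 8 microglial markers had positive log2 fold changes, with medians of 0.48, 0.47 and 0.45, whereas the median of the 9 neuronal markers was 0.03. The microglial markers summed to 726 to 870 CPM against 500 to 661 CPM, the neuronal ones to 9790 to 12000 against 8750 to 10900 CPM, and the 7 endothelial ones, 4 of them positive with a median of 0.22, to 271 to 500 against 294 to 317 CPM. No marker passed the threshold in the unpaired fit, and with the preparation as a block 5 astrocyte, 4 oligodendrocyte, 3 microglial, 2 neuronal and 1 endothelial markers were higher and 2 neuronal ones lower, when 11.8% of all genes were higher and 13.2% lower. These shifts of glial markers accompany every value below, and their part in the chromatin genes' differences was not tested. By the methods, both libraries of a preparation come from aliquots of the same material, so the shifts are not a measure of cell number. In such mixed material the cell type in which a chromatin gene's mRNA differed cannot be told.

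The question put to the chromatin genes was how their abundance on polyribosomes of stimulated synaptoneurosomes compared with that in total synaptoneurosomal RNA. Their mRNAs were lower on polyribosomes more often than higher. Of the 72 genes that passed the expression filter, 7 were lower at an adjusted p under 0.01 and 0 were higher (quasi-likelihood test of edgeR, adjusted by the Benjamini-Hochberg method over all genes tested). The lower genes were Smarca1, Kdm7a, Arid4b, Chd9, Kdm6a, Chd2 and Setd2, whose levels in total RNA were 1.70 to 2.20 times those on polyribosomes. These 7 are 9.72% of the chromatin genes tested, whereas 289 of all 12255 genes tested were lower (2.36%) and 87 were higher (0.71%). At an unadjusted p under 0.05, 24 chromatin genes were lower and 2 higher, against 17.1% and 15.4% of all genes. DESeq2 called 8 lower and 0 higher, against 3.28% and 2.19% of all genes. The log2 fold change, in which negative means lower on polyribosomes, was negative for 55 of 72 (76.4%) against 49.9% of all genes, and its median was -0.25 against 0.00. Within preparations 1, 2 and 3 the median of the chromatin genes was -0.24, -0.16 and -0.44 (mean -0.28 ± 0.15, SD, n = 3).

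Counted by single libraries, all polyribosome libraries lay below all total RNA libraries for 27 chromatin genes (37.5%), against 18.9% of all genes, and above them for 2 genes, Hdac1 and Setd6, against 17.4% of all genes. Lower values on polyribosomes in every preparation were found for 34 genes (47.2%), against 30.6% of all genes, and higher values in every preparation for 5 genes, against 30.2% of all genes. With the preparation as a block in the fit, 21 chromatin genes were lower (29.2%) and 2 were higher, Hdac5 and Smarcb1, against 13.2% and 11.8% of all genes, and all 7 genes named above were among the 21. The other 14 were Arid2, Arid4a, Chd1, Chd6, Chd8, Kdm2a, Kdm4c, Kdm5b, Kmt2a, Kmt2c, Kmt2e, Setd3, Setd5 and Smarcad1. Their log2 fold changes in the unpaired fit ran from -0.82 to -0.45.

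The unpaired calls depended on which libraries were included. The log2 fold changes of the 7 genes moved less, and stayed between -1.29 (Kdm7a) and -0.67 (Setd2) when single libraries were left out. Without polyribosome replicate 2 no chromatin gene passed, when 0.374% of all genes were still called lower, and without total RNA replicate 2 none passed either, when 0.173% of all genes were. Without both libraries of preparation 3, the shallowest and most divergent one, all 7 genes passed together with Chd6, and Hdac5 passed as higher. In that fit 5.25% of all 12539 genes tested were called lower and 453 genes were called higher. Without preparation 1, 0 chromatin genes passed, when 8 genes were called lower over all, and without preparation 2 no gene of the table passed.

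**Figure D2:**
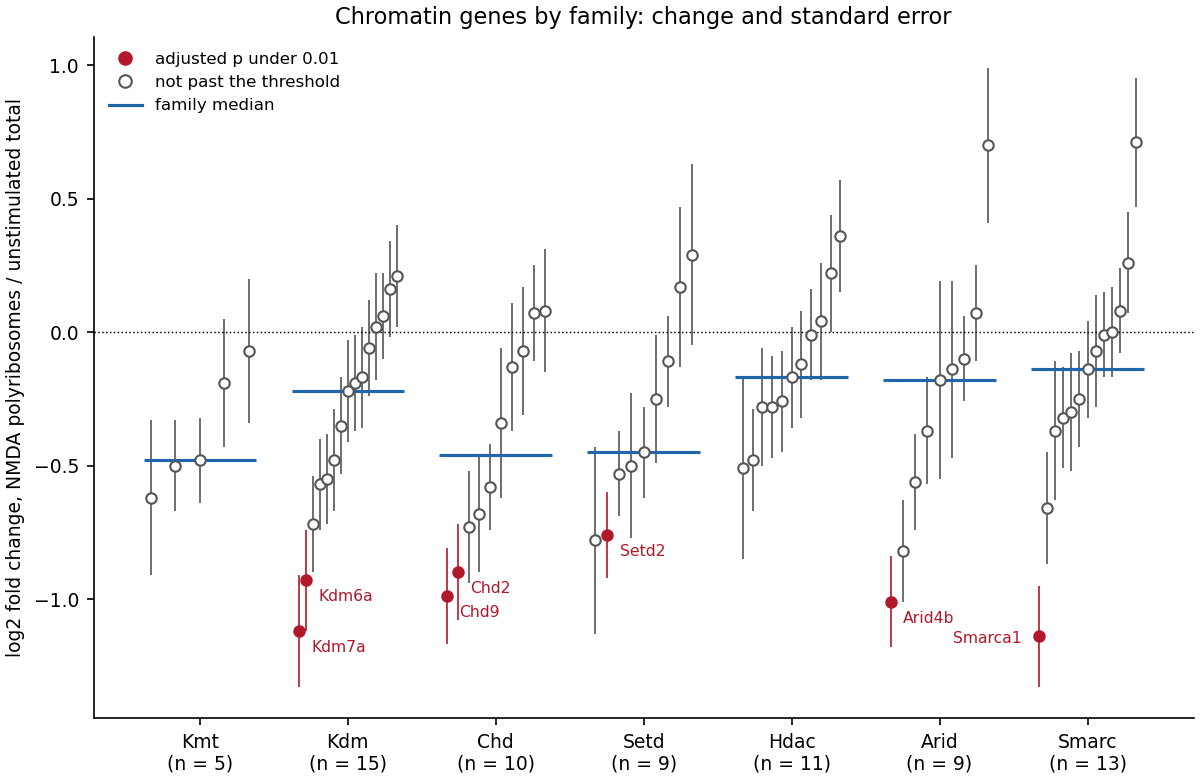
Log2 fold change of each chromatin gene tested, NMDA polyribosomes over unstimulated total RNA, by family (points, genes ordered by value; bars, standard error of the edgeR fit on 3 against 3 libraries; blue lines, family medians). The 7 filled points passed an adjusted p under 0.01, all lie between -1.14 and -0.76, and no gene passed above 0.

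The 7 genes that were lower on polyribosomes come from 5 families. They had 5897 to 12056 bases of exons in 20 to 40 exons, spread over 70167 to 225674 bases of the genome. The medians of the 72 chromatin genes tested were 6240 bases of exons, 23 exons and 52000 bases of the genome. Smarca1, the ATPase of nucleosome-sliding ISWI complexes (chrX:47809368-47892974), had the most negative fitted value. It had 20.8, 19.7 and 14.4 CPM in polyribosome replicates 1 to 3 and 39.7, 45.2 and 35.5 CPM in total RNA replicates 1 to 3. The highest polyribosome library lay below the lowest total RNA library, with a log2 fold change of -1.14 (SE 0.19, adjusted p = 0.00349). Averaged over preparations, Kdm7a was at -1.15 ± 0.37 and Smarca1 at -1.12 ± 0.18 (SD, n = 3), so their order is not resolved.

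Kdm7a, a demethylase of histone H3 (chr6:39136623-39206789), had 41.3, 37.4 and 23.5 CPM on polyribosomes and 72.0, 81.7 and 69.0 CPM in total RNA. The groups were apart and preparation 3 gave the largest difference, -1.54 against -0.80 in preparation 1, for a fitted value of -1.12 (SE 0.21, adjusted p = 0.00481). Kdm6a, an H3 lysine demethylase encoded on the X chromosome (chrX:18162575-18279936), was weaker in both groups, at 16.9, 14.0 and 13.4 CPM on polyribosomes and 28.8, 27.1 and 29.7 CPM in total RNA. Its groups did not overlap either, and its log2 fold change was -0.93 (SE 0.19, adjusted p = 0.00749).

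Chd9 (chr8:90828835-91054508) and Chd2 (chr7:73426638-73541830), members of the CHD family of ATP-dependent remodelers, were both lower. Chd9 had 64.4, 58.4 and 60.9 CPM on polyribosomes and 102, 114 and 156 CPM in total RNA. The polyribosome libraries were close together and the total RNA libraries spread widely, with replicate 3 highest, and the log2 fold change was -0.99 (SE 0.18, adjusted p = 0.00481). Chd2 had 39.1, 41.1 and 43.4 CPM on polyribosomes and 71.3, 67.3 and 95.9 CPM in total RNA, and its groups were again apart (log2 fold change -0.90, SE 0.18, adjusted p = 0.00732). Chd9 overlaps the annotated gene Gm6658, so part of its reads could belong there.

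Arid4b, a subunit of Sin3 histone deacetylase complexes (chr13:14063232-14199603), had 30.7, 29.8 and 24.7 CPM on polyribosomes and 56.1, 57.6 and 59.5 CPM in total RNA. Both groups were tight and well separated, with a log2 fold change of -1.01 (SE 0.17, adjusted p = 0.00336), the smallest adjusted p among the chromatin genes. It overlaps Ggps1, and strand use in the counting is not given in the sources used here. Setd2, which trimethylates lysine 36 of histone H3 along transcribed genes (chr9:110532597-110618633), had 73.0, 68.2 and 57.2 CPM on polyribosomes and 108, 115 and 115 CPM in total RNA. Its groups were also apart, but its adjusted p of 0.00972 lay nearest to the threshold (log2 fold change -0.76, SE 0.16), and with relative log expression size factors it was 0.0101.

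**Figure D3:**
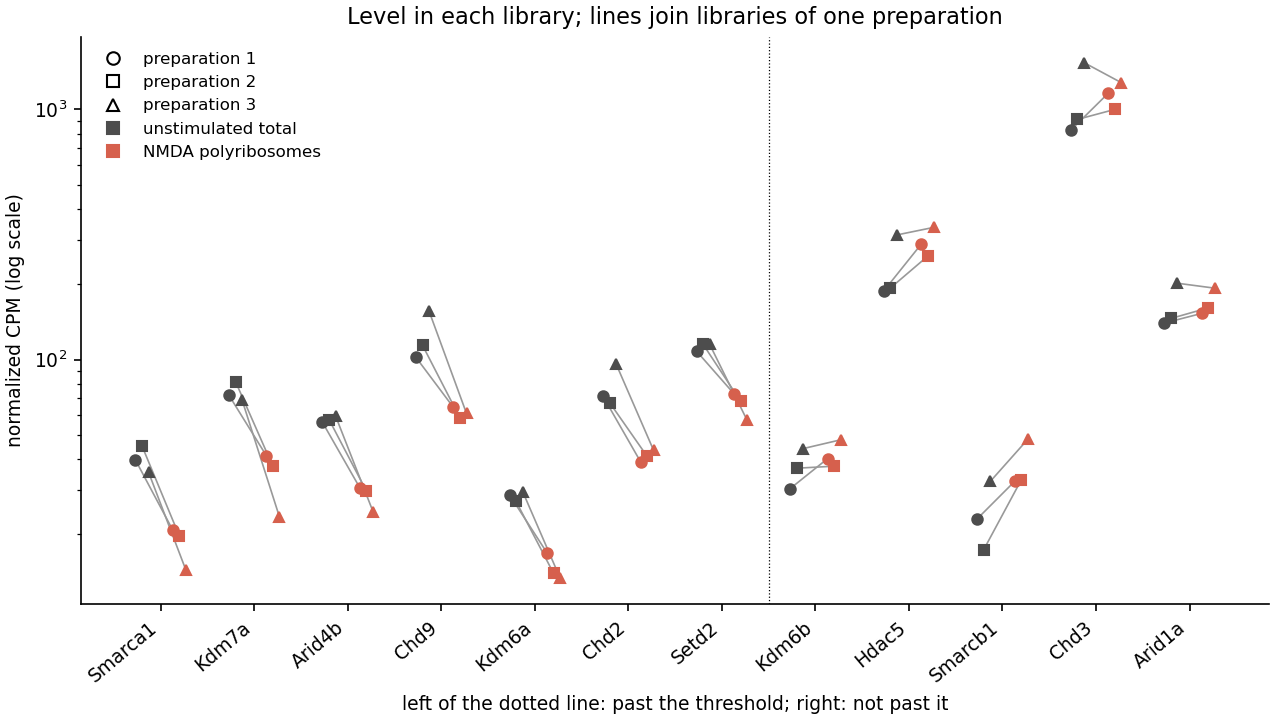
Normalized CPM (log axis) of 12 chromatin genes in each library (grey, unstimulated total RNA; red, NMDA polyribosomes; symbols, preparations; lines join the libraries of 1 preparation). For the 7 genes left of the dotted line every line falls towards polyribosomes and the groups do not overlap, whereas for Kdm6b, Hdac5, Smarcb1, Chd3 and Arid1a they overlap.

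By family, the genes of the Kmt2 group, most of which encode lysine methyltransferases, were negative in 5 of 5 (median log2 fold change -0.48). Of these, 0 passed in the unpaired edgeR fit or with DESeq2. At an unadjusted p under 0.05, 3 were lower, and 3 were lower with the preparation as a block. Kmt2a, the founding MLL methyltransferase of lysine 4 of histone H3, had 144, 156 and 263 CPM on polyribosomes and 187, 248 and 442 CPM in total RNA. Its groups overlapped, both libraries of preparation 3 were the highest of their group, and it was lower within each preparation, by -0.37, -0.67 and -0.75. The log2 fold change was -0.62 (SE 0.29, adjusted p = 0.148), and with the block -0.60 at an adjusted p of 5.07e-05. Leaving out single libraries gave values from -0.94 without polyribosome replicate 3 to -0.22 without total RNA replicate 3. Kmt2d, the most abundant of the group per kilobase of exon (15.3 CPM per kb), had 241, 240 and 405 CPM against 217, 256 and 466 CPM, which overlapped (log2 fold change -0.07, SE 0.27, adjusted p = 0.89). Kmt2c and Kmt2e, the remaining members lower with the block, had unpaired log2 fold changes of -0.48 and -0.50, and Kmt2b had -0.19.

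Among the Kdm demethylases 15 of 18 genes were tested, of which 2 were lower, 11 were negative and 5 were lower with the block (median -0.22). The Jumonji enzymes, which use iron and oxoglutarate, had a median of -0.35 over 13 genes, and the amine oxidases Kdm1a and Kdm1b one of -0.10. Kdm1a, which demethylates lysine 4 of histone H3 and whose protein served the study as a nuclear marker, had 42.5, 34.8 and 29.6 CPM on polyribosomes and 37.2, 30.1 and 40.3 CPM in total RNA. These overlapped fully (log2 fold change 0.02, SE 0.20, adjusted p = 0.968), and Kdm1a overlaps Luzp1. Kdm5c, an X-linked demethylase mutated in intellectual disability and the most abundant Kdm gene at 12.1 CPM per kb, was at 85.2, 83.4 and 77.0 CPM against 86.9, 69.0 and 80.6 CPM (log2 fold change 0.06, SE 0.16, adjusted p = 0.841). Kdm6b, a stimulus-inducible demethylase (chr11:69398508-69413675), had the highest log2 fold change of the family, 0.21 (SE 0.19, adjusted p = 0.483), from 40.2, 37.5 and 47.8 CPM on polyribosomes and 30.5, 36.8 and 44.1 CPM in total RNA.

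The sequences shown for Kdm6a and Kdm6b thus belong to genes whose log2 fold changes differed by -1.14, -0.96 and -1.24 in preparations 1 to 3 (mean -1.11 ± 0.14, SD, n = 3). The pair was chosen after its values were seen, so no test is given. Hdac9 and Hdac5, class IIa histone deacetylases that shuttle between nucleus and cytoplasm, differed in the same sense, by -0.95, -0.83 and -0.87 (mean -0.88 ± 0.06).

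Among the Chd remodelers, Chd1 and Chd2 were both lower with the block, as were 3 of the 4 genes Chd6 to Chd9. The medians of these groups of genes in the unpaired fit were -0.79 and -0.66. Chd3, Chd4 and Chd5, the ATPases of the NuRD complex, had an unpaired median of 0.07 and none passed in either fit. Chd3 was the most abundant chromatin gene tested, at 154 CPM per kb, with 1160, 1000 and 1280 CPM on polyribosomes and 826, 912 and 1540 CPM in total RNA. Its total RNA libraries enclosed the polyribosome libraries (log2 fold change 0.08, SE 0.23, adjusted p = 0.845), and it overlaps Gm17305. Chd8, a leading gene of autism genetics, had 71.4, 77.7 and 69.8 CPM against 112, 95.4 and 123 CPM. Its groups did not overlap, and its log2 fold change of -0.58 (SE 0.16) had an adjusted p of 0.0286 without the block and 0.000117 with it. Chd6 was at -0.73, and Chd7, mutated in CHARGE syndrome, at -0.13.

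In the Setd family 1 of 9 genes was lower in the unpaired fit and 3 were with the block, and the median log2 fold change was -0.45. Setd5, a further gene of intellectual disability, had 89.8, 80.7 and 70.8 CPM on polyribosomes and 113, 118 and 120 CPM in total RNA. The groups did not overlap (log2 fold change -0.53, SE 0.16, adjusted p = 0.0378, and 0.000405 with the block). Setd7, a lysine methyltransferase of histone and other proteins, was the most abundant at 40.9 CPM per kb, with 315, 316 and 242 CPM against 295, 321 and 329 CPM, which overlapped (log2 fold change -0.11, SE 0.17, adjusted p = 0.695). The ends of the family were weakly expressed genes. Setd4 had 2.26 to 2.30 CPM on polyribosomes and 3.01 to 4.72 CPM in total RNA (log2 fold change -0.78, SE 0.35, adjusted p = 0.13), and Setd6 3.25 to 3.50 and 2.34 to 2.98 CPM (log2 fold change 0.29, SE 0.34, adjusted p = 0.597).

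No Hdac gene passed the unpaired edgeR test or that of DESeq2, 1 was lower and 0 higher at an unadjusted p under 0.05, 8 of 11 were negative and the median was -0.17. The class I enzymes, which include the catalytic subunits of the Sin3, NuRD and CoREST complexes, had a median of -0.04, class IIa -0.23, class IIb -0.39 and Hdac11, the sole class IV enzyme, -0.01. Hdac2 had 20.4, 22.3 and 20.2 CPM on polyribosomes and 25.3, 28.8 and 20.1 CPM in total RNA, which overlapped (log2 fold change -0.28, SE 0.19, adjusted p = 0.321). Hdac4 had 148, 142 and 158 CPM against 145, 145 and 222 CPM (log2 fold change -0.17, SE 0.19, adjusted p = 0.561). Hdac5 (chr11:102194432-102230166), the most abundant at 46.9 CPM per kb, had 289, 259 and 338 CPM on polyribosomes and 188, 193 and 315 CPM in total RNA. It was higher on polyribosomes in every preparation although the groups overlapped, and its log2 fold change of 0.36 (SE 0.21, adjusted p = 0.243) became 0.39 with the block, at an adjusted p of 0.00924, and ran from 0.22 without total RNA replicate 1 to 0.63 without total RNA replicate 3. Hdac10, the lowest value of the family, ran from 3.38 to 4.22 CPM on polyribosomes and from 3.01 to 7.20 CPM in total RNA (log2 fold change -0.51, SE 0.34, adjusted p = 0.321).

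Of the Arid genes, 9 of 10 were tested, 1 was lower and 7 were negative (median -0.18), and 3 were lower with the block. Arid4a and Arid4b, the Sin3 partners, had a median of -0.92. The BAF subunit Arid1a, the most abundant at 19.4 CPM per kb, had 153, 161 and 193 CPM on polyribosomes and 140, 146 and 202 CPM in total RNA, and its paralogue Arid1b, mutated in Coffin-Siris syndrome, 126, 120 and 130 CPM against 128, 131 and 145 CPM. Both overlapped, with log2 fold changes of 0.07 (SE 0.18, adjusted p = 0.825) and -0.10 (SE 0.16, adjusted p = 0.708). Arid5a, an RNA-binding protein that stabilizes cytokine mRNAs, had 12.2, 11 and 11.1 CPM against 7.95, 4.02 and 11.5 CPM. It had the highest log2 fold change of the family, 0.70 (SE 0.29, adjusted p = 0.107, and 0.0117 with the block), and preparation 3 did not share its direction (-0.05).

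In the Smarc family 1 of 13 genes was lower in the unpaired fit and 2 with the block. The Smarca ATPases, with Smarcad1 and Smarcal1, had a median of -0.22 over 6 genes and the Smarcb to Smarce subunits one of -0.07 over 7. Smarca5, the other ISWI ATPase, had 47.2, 33.3 and 30.7 CPM on polyribosomes and 51.7, 49.9 and 31.6 CPM in total RNA, which overlapped (log2 fold change -0.30, SE 0.22, adjusted p = 0.352). Smarca1 and Smarca5 differed by -0.79, -0.60 and -1.23 in preparations 1 to 3 (mean -0.87 ± 0.32, SD, n = 3), also a pair chosen after its values were seen. Smarcc2, a scaffold of BAF and the most abundant Smarc gene at 51.4 CPM per kb, had 224, 255 and 291 CPM against 198, 251 and 366 CPM (log2 fold change -0.07, SE 0.21, adjusted p = 0.845).

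Smarcb1, the core BAF subunit lost in rhabdoid tumours, had the highest log2 fold change of all 72 genes, 0.71 (SE 0.24, adjusted p = 0.0551). It had 32.6, 33.0 and 48.0 CPM on polyribosomes and 23.1, 17.4 and 32.6 CPM in total RNA, was higher in every preparation, and with the block had a log2 fold change of 0.65 at an adjusted p of 0.000481. Across families, the 12 subunits of BAF among these genes had 0 calls in the unpaired edgeR fit or with DESeq2, 1 lower and 1 higher gene at an unadjusted p under 0.05, 7 negative values and a median of -0.04, and 1 lower (Arid2) and 1 higher (Smarcb1) with the block.

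Summed over all 76 genes, polyribosome libraries held 5850, 5620 and 6460 CPM and total RNA libraries 5800, 6120 and 8380 CPM. The sums overlapped, at 5980 ± 436 against 6760 ± 1410 CPM (SD, n = 3 each). The sums of the Kdm genes (573 to 627 against 697 to 853 CPM), of the Setd genes (518 to 630 against 682 to 779 CPM) and of the Arid genes (401 to 442 against 449 to 559 CPM) did not overlap, and those of the other 4 families did.

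The filter on low counts removed 4 genes. Kdm5d was described above. Arid3c had 0 counts in all 6 libraries, Kdm4d 7, 3 and 5 on polyribosomes and 3, 2 and 2 in total RNA, and Kdm8 11, 6 and 15 and 2, 2 and 4. No fold change is given for them.

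The chromatin genes were longer than the other genes tested, with a median exonic length of 6240 against 3610 bases and a median of 23 against 9 exons, while their median GC content, 51.6%, was close to the 50.5% of all genes. Their fold changes ran with GC content and, less closely, with length. The Pearson correlation of log2 fold change with the log2 of exonic length was -0.33 across the 72 genes and -0.35 across all genes. For the log2 of the genomic span it was -0.40 and -0.33, and for that of the number of exons -0.33 and -0.20. Across the 72 genes the Pearson correlation between GC content and log2 fold change was 0.70 (Spearman 0.69), and within preparations 1, 2 and 3 it was 0.60, 0.66 and 0.61. Across all 12215 genes with a transcript sequence it was 0.53 (Spearman 0.54), and these correlations are across genes that share the same 6 libraries and are not independent replicates. All 13 chromatin genes under 45% GC had negative values (median -0.72), 5 of them passed and 9 did with the block (69.2%), when 78.1% of all genes in that range were negative, 6.69% were called lower and 31.6% were with the block. Of 19 genes between 45% and 50%, 17 were negative (median -0.48), 2 passed and 11 did with the block (57.9%), against 64.5%, 2.76% and 16.9% of all genes. Of 19 between 50% and 55%, 16 were negative (median -0.14), 0 passed and 1, Kmt2a, did with the block, against 41.7%, 0.587% and 6.52% of all genes. Of 21 at 55% or more, 9 were negative (median 0.07), 0 passed, and the 2 higher genes of the blocked fit, Hdac5 and Smarcb1, lay here, against 20.5% negative, 0.0625% called lower and 26.0% higher with the block over all genes. For all genes the medians of these bins were -0.35, -0.15, 0.08 and 0.32, each above that of the chromatin genes. The 7 lower genes had 39.5% to 47.9% GC.

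**Figure D4:**
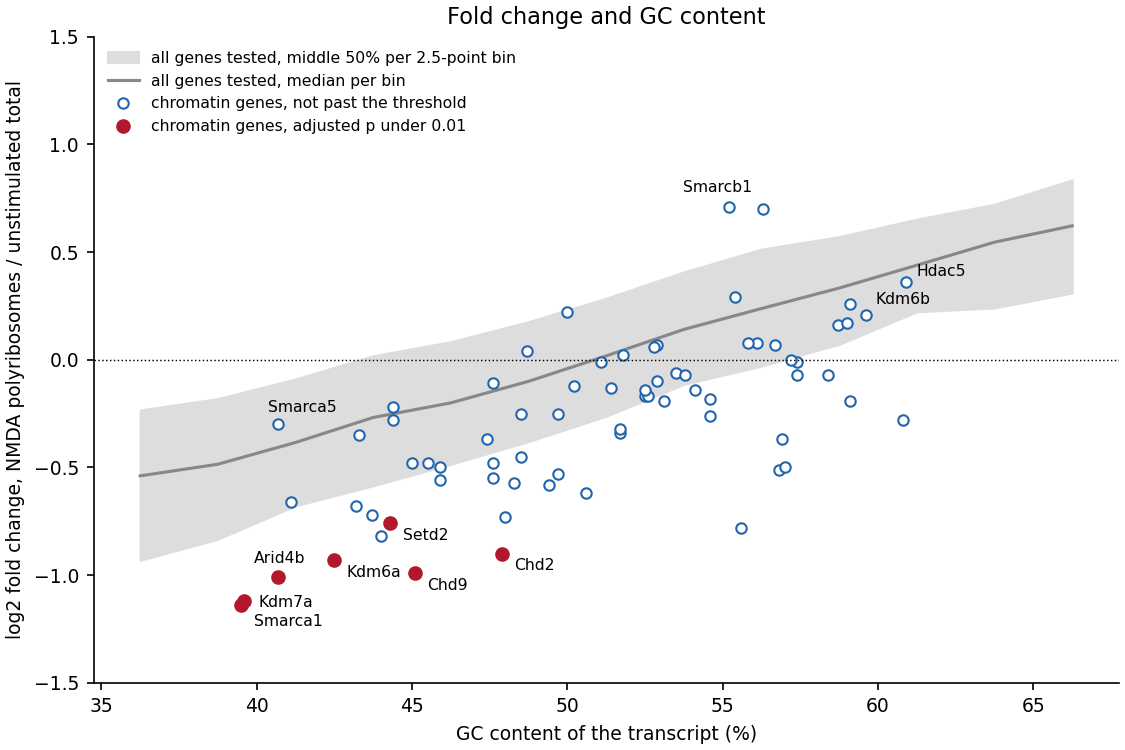
Log2 fold change (NMDA polyribosomes over unstimulated total RNA) against the GC content of the transcript for the 72 chromatin genes tested (points; filled, adjusted p under 0.01), with the median (line) and middle 50% (band) of all genes tested. The values of the chromatin genes rise with GC content, and the 7 filled points lie between 39.5% and 47.9% GC, below the line.

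With an offset for GC content and exonic length added to the blocked fit, 9 chromatin genes were lower (12.5%), the 7 above with Arid4a and Chd6, and 0 were higher, against 7.17% and 9.20% of all genes. The median log2 fold change of the chromatin genes moved from -0.22 with the block to -0.16, and those of the 7 genes to between -0.62 (Smarca1) and -0.37 (Setd2). Smarcb1 then had 0.34 and Hdac5 0.13, and neither passed. None of the Kmt or Hdac genes was called in this fit. Of the paralogue pairs that differed widely in GC content, Kdm6a had -0.54 and Kdm6b -0.00 in this fit, and Hdac9 had -0.07 beside the 0.13 of Hdac5. Smarca1 and Smarca5 (39.5% and 40.7% GC) and Setd1a and Setd1b (57.0% and 59.0% GC, differing by -0.70 ± 0.19, SD, n = 3) were pairs of similar GC content whose ratios differed, whereas Arid4b and Arid4a (40.7% and 44.0% GC) differed by -0.17 ± 0.21 and Chd2 and Chd1 (47.9% and 43.2% GC) by -0.18 ± 0.41. Setd1a was weakly expressed, with 44, 38 and 21 counts on polyribosomes and 27, 25 and 9 in total RNA, and it overlaps Hsd3b7. These pairs too were chosen after their values were seen.

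**Figure D5:**
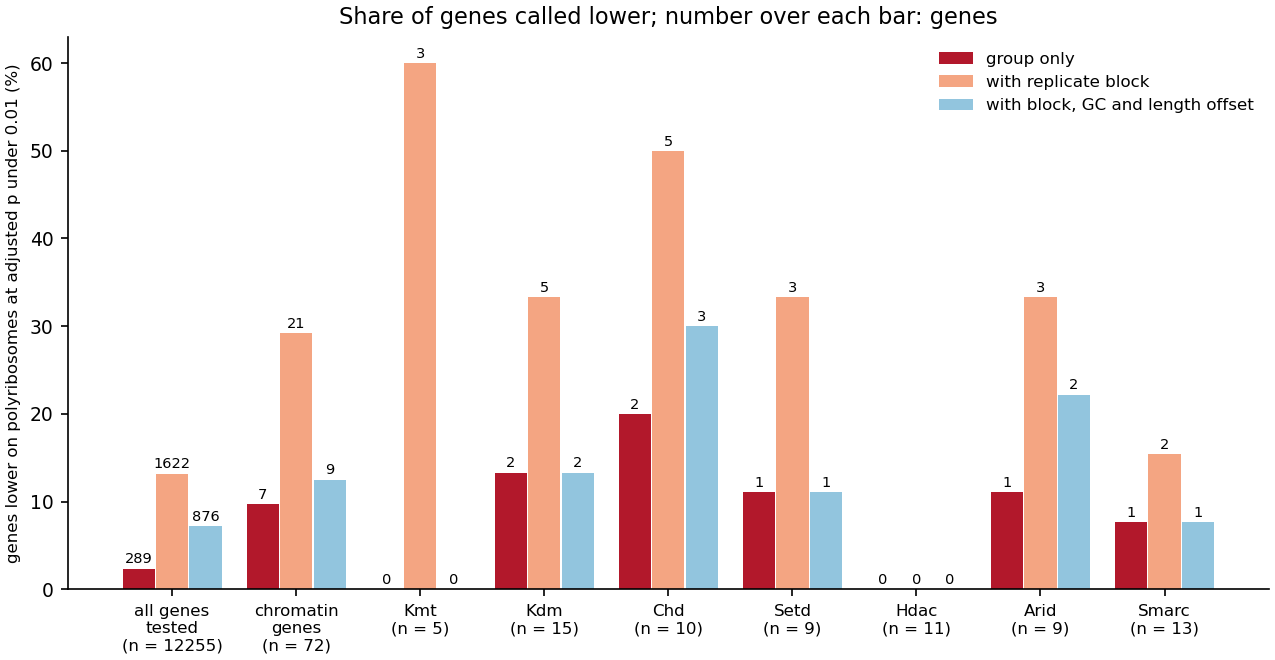
Percent of genes lower on polyribosomes at an adjusted p under 0.01 among all genes tested, the chromatin genes and each family, in the unpaired fit, with the replicate block, and with the block and the GC and length offset (number of genes over each bar; the third fit covers 12215 genes). The chromatin genes stand at 9.72%, 29.2% and 12.5% against 2.36%, 13.2% and 7.17% of all genes, and the Hdac bars are at 0.

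A list of 96 other chromatin genes, writers, erasers, readers and complex partners that the name rule does not take, gave 94 tested entries, of which 3 were lower (3.19%) and 0 higher. They were Tet2, which oxidizes methylcytosine (40.9 ± 2.60 CPM on polyribosomes and 90.5 ± 16.6 CPM in total RNA, log2 fold change -1.12, SE 0.17, adjusted p = 0.0022), the corepressor gene Rcor3 (log2 fold change -1.21, adjusted p = 0.00386) and the acetyltransferase Kat6b (log2 fold change -0.92, adjusted p = 0.00631). In this list 32 genes were lower and 1 higher at an unadjusted p under 0.05, against the 17.1% and 15.4% of all genes given above. Its log2 fold changes were negative for 63 genes (67.0%) with a median of -0.21, and 29 genes were lower and 3 higher with the block (30.9% lower). With the block and the GC and length offset 16 were lower (17.2%) and 0 higher. In the unpaired fit its share of lower genes was below that of the 72 genes tested by the name rule (3.19% and 9.72%, 3 and 7 genes). In the fit with block and offset it was above (17.2% and 12.5%, 16 and 9 genes).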

How the data were processed

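The authors depleted ribosomal RNA, prepared libraries and mapped reads to GRCm38 with STAR (2.5.2b in the submitters' processing notes, which also list CASAVA 1.8.2), and deposited raw, unnormalized read counts per protein-coding gene of the Gencode vM6 basic set. The methods call the libraries strand-specific, the labels name the TruSeq v2 kit, and whether counting used strand is not given in the sources used here. The deposited table also holds the authors' DESeq2 comparison (mean, log2 fold change, standard error, statistic, p-value, adjusted p), which was not used.

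Counts were analysed with edgeR 4.0.16 in R 4.3.3: TMM normalization, filterByExpr (12255 genes kept), quasi-likelihood test on group alone, Benjamini-Hochberg adjustment over all genes tested and a threshold of 0.01. CPM are counts scaled to TMM-adjusted library size, and differences within a preparation are of log2 CPM with a prior count of 2. Library totals ranged from 1044955 to 7361580 counts, and precision is lowest for weak genes in total RNA replicate 3. DESeq2 1.42.0, further scalings and low-count filters, a replicate block, the block with an offset from splines of GC content and exonic length (5 degrees of freedom), leaving out each library and, chosen after the Y-linked counts were seen, leaving out each preparation served as alternatives. Exonic lengths, exon numbers, GC content and the sequence stretches with their positions come from Gencode vM21 on GRCm38 (99.7% of genes tested). Gene positions, genomic spans and overlaps come from the coordinates in the deposited table. Same-numbered libraries share a label in the deposited table, the methods divide each preparation into aliquots, and across genes their departures from the group means had correlations of 0.37, 0.26 and 0.38. The numbers were therefore read as marking preparations. The reported fold changes, standard errors and adjusted p-values still come from the unpaired fit, and blocked values are named as such. P-values of the unpaired fits set a difference against the spread between libraries of a group. Those of the blocked fits set it against the spread left once each preparation's own level is removed. The procedure was tested on simulated data, which held no differences between preparations, and the fit with the GC and length offset was not part of that test. Replicates of a group differed by more than sampling noise, most in preparation 3.

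The genes and lists were chosen with earlier results of these data known. Genes named are those past the threshold, the highest and lowest log2 fold change and the most abundant gene per kb of each family, fixed genes of neurodevelopment or of the study (Kdm1a, Kdm5c, Kmt2a, Chd8, Setd5, Hdac2, Hdac4, Arid1b, Smarcc2), and those the filter removed. Paralogue pairs and other genes named were chosen after their values were seen.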

Additional observations from a re-analysis of the deposited data

How the results depend on the processing

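All 7 lower chromatin genes were called again under total-count scaling, upper-quartile scaling, other filters, DESeq2, the block and the block with the offset, and 6 with relative log expression size factors. Counts over all genes moved more. Higher genes numbered 42 with total counts alone, 476 with every gene of at least 1 count, 268 with DESeq2, 1441 with the replicate block, 1124 with the block and offset, and 1, 0 and 453 without preparation 1, 2 or 3. Lower genes numbered 566, 1622 and 876 with every gene, block, and block and offset, and 8, 0 and 658 without preparation 1, 2 or 3. With the replicate block 21 chromatin genes were lower and 2 higher (3 Kmt, 5 Kdm, 5 Chd, 3 Setd, 3 Arid and 2 Smarc lower). Arid calls numbered 2 with every gene, DESeq2, or block and offset, and Setd calls 0 with relative log expression. Without preparation 1 or 2 every chromatin count was 0, and without preparation 3 there was 1 higher gene. Leaving out single libraries gave 0 to 61 higher and 22 to 208 lower genes, 0 to 5 lower and 0 higher chromatin genes (0 without replicate 2 of either group), 0 to 1 Kdm, Arid or Smarc, 0 to 2 Chd and 0 Setd calls, and chromatin medians of -0.29 to -0.18. The 7 genes then had log2 fold changes between -1.29 (Kdm7a) and -0.67 (Setd2). The causes were not tested. Scaling by total counts alone moved the median of all genes to -0.11 and that of the chromatin genes to -0.36.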
